A study of Mus musculus with 8 samples.

Results

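Gata3, Elf5, Foxa1, Esr1, Pgr, Ehf, Elf3, Runx1, Cebpb and Tfap2c encode 10 transcription factors of the luminal and alveolar mammary epithelium, and their mRNA was followed in lactating glands with and without Th-POK. The members were found by matching the RefSeq accession of each array probe to these gene symbols, which gave 14 probes for the 10 genes, among 18749 genes with a matched probe. A total of 9 of the 10 were among the 14137 genes tested. No. 4 mammary glands came from 4 wild-type (WT) and 4 Th-POK-deficient (KO) dams, all female C57/Bl6 mice on lactation day 1. Each dam's RNA went onto its own one-colour Agilent mouse array. Th-POK, also called Zbtb7b, is a transcription factor known for directing T cells to the CD4 lineage. The knockout is not described as restricted to the epithelium, the sources used here name no allele for it, and the dams were age-matched without an age being given.

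The mammary epithelium has an outer basal, contractile layer and an inner luminal layer. Luminal cells either respond to hormones, carrying the estrogen receptor (Esr1) and the progesterone receptor (Pgr) together with Foxa1, or form the alveoli that secrete milk, where Elf5 acts downstream of prolactin and Stat5. Gata3 is required for both fates, and Gata3, Foxa1 and Esr1 are known to bind DNA together. Ehf, Elf3 and Elf5 belong to the epithelium-specific branch of the ETS family, Runx1 maintains luminal identity, Cebpb is needed for alveolar growth, and Tfap2c is an AP-2 factor of luminal cells. The comparison of KO with WT asks which of these regulators stood at another mRNA level when Th-POK was missing at the start of lactation.

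Elf3 and Foxa1 were the members that rose in the KO glands, Elf3 by 2.05-fold and Foxa1 by 2.01-fold, a size that was smaller with another background correction. Foxa1 only just passed the test, and no longer did in 6 of the 8 fits that left out an array, whereas Elf3 passed in all 8. Gata3 was higher in every KO dam than in every WT dam, as were 11.1% of all genes, but it did not pass the test. Runx1 was higher, and Elf5 lower, in every KO dam than in the WT dam of the same replicate number, but neither passed. The sources do not say whether dams of the same number were paired. Esr1, Ehf, Cebpb and Tfap2c differed by less than the spread between dams, and Pgr was near or below the background of the array. In numbers, 2 of 9 tested members were called higher (22.2%) and 0 called lower. A call means that the adjusted p was under 0.05 in limma, a linear model that shares information on the spread across genes. Over all genes 16.5% were called, 7.53% higher and 8.96% lower. At an unadjusted p under 0.05 the members counted 4 higher and 1 lower, against 16.7% of all genes higher and 19.6% lower. Their median difference was 0.20 on the log2 scale, against -0.02 over all genes, whose 5th and 95th percentiles were -0.89 and 0.82.

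All levels below are log2 signals, quantile-normalized so that every array has the same distribution, and a difference of 1 is a change of 2-fold. As the check of genotype, the probe of Zbtb7b read 9.90 to 10.42 in the WT glands. It was above background on 0 of the 4 KO arrays, at least 81.5-fold lower. No p is given for this limit, since the KO signals were not measured above background. The 8 arrays measured between 66.8% and 75.3% of their probes well above background. The WT arrays shared a slide and scan and the KO arrays the other, so slide and genotype cannot be told apart in any result here. In whole glands, fewer cells of a type and less RNA per cell also cannot be told apart.

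**Figure D1:**
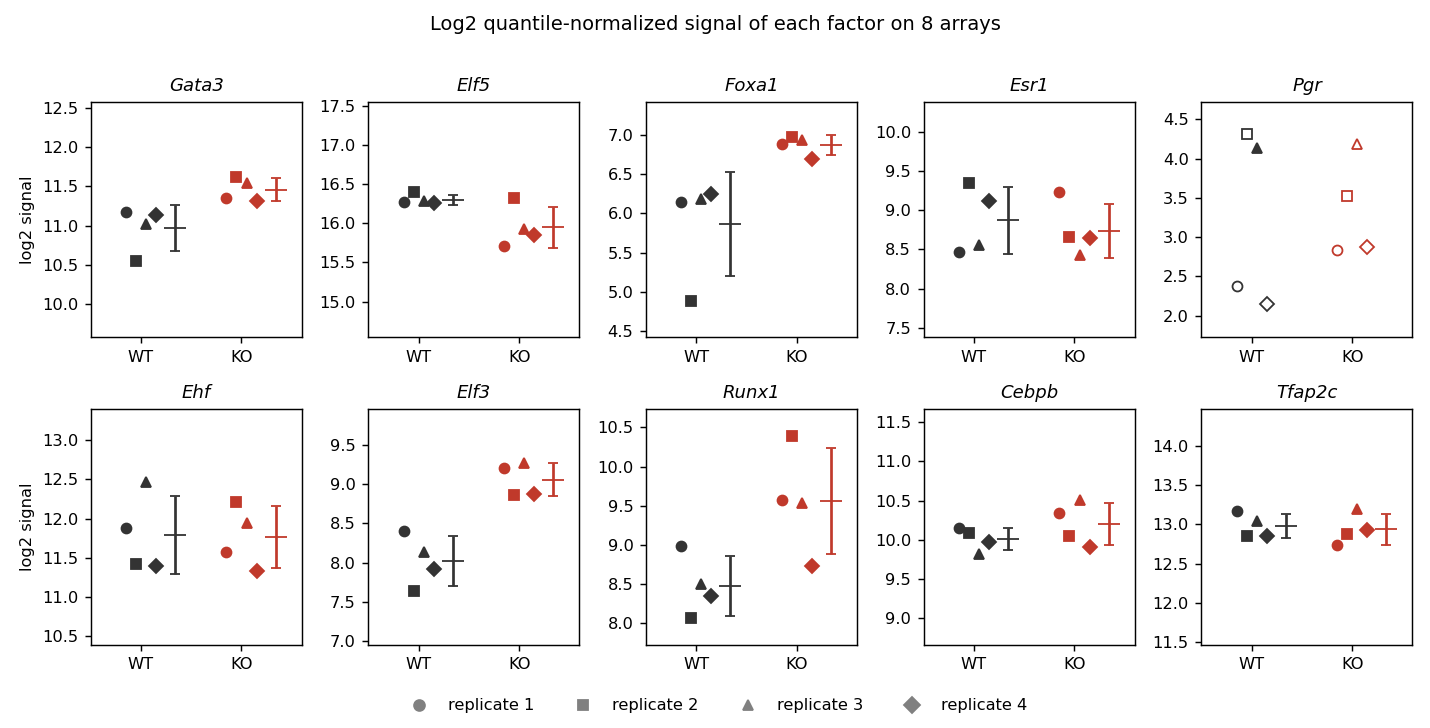
Log2 quantile-normalized signal (y axis, each panel spanning at least 3 units on its own range) of the 10 factors in 4 WT and 4 KO glands. Symbols mark the replicate number, bars the mean and SD of 4 arrays, and open symbols a signal not well above background. Pgr has no bar because 7 of its 8 values were not above background. Foxa1, Elf3 and Gata3 show KO values all above the WT values, and the WT replicate 2 value of Foxa1 (4.88) lies far below the others.

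Among the hormone-sensing factors, Foxa1 is a pioneer factor, a protein that opens chromatin for the estrogen receptor. Its probe read 6.15, 4.88, 6.19 and 6.25 in the WT glands of replicates 1 to 4, and 6.88, 6.97, 6.93 and 6.69 in the KO glands. Every KO value lay above every WT value, and WT replicate 2 stood more than 1 log2 unit below the other WT glands. The difference was 1.00 ± 0.29 (SE, n = 4 per genotype; 95% interval 0.34 to 1.67), and limma gave an adjusted p of 0.0490 over all genes. The size depended on the background correction, since with normexp correction the difference was 0.46, still called (limma, adjusted p = 0.0407). The call was at the edge: adjusted over probes the p was 0.0503, with the replicate number as a block it was 0.0568, and it passed in 2 of the 8 fits that left out an array. Without WT replicate 2 the difference was 0.68 and still called (limma, adjusted p = 0.0251). It was called without WT replicate 1 too. The call was lost when any of the other 6 arrays was left out, where the adjusted p lay between 0.0537 and 0.113.

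Foxa1 and Elf3 moved in the same direction, so the 250 bases before the annotated start of each are shown, from RefSeq on build GRCm38.p6. Both genes lie on the minus strand, and the sequences read 5′ to 3′ towards the start. Capitals mark the letters of a forkhead motif in Foxa1, while Elf3 held none of the 8 motifs searched. The Foxa1 window is chr12:57546112-57546361 and that of Elf3 is chr1:135258473-135258722.
Foxa1: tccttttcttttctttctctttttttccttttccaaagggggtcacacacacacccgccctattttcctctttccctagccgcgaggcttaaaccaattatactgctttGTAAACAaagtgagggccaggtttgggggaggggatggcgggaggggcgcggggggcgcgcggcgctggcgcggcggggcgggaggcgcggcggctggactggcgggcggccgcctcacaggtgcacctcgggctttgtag
Elf3: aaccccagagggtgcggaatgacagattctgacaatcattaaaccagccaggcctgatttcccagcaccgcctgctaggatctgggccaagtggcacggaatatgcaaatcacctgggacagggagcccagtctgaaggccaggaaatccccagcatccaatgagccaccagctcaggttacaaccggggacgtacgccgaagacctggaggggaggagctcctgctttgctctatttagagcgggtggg

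The forkhead letters (TGTTTAC on one strand, GTAAACA on the other) began 141 bases before the Foxa1 start, and 3.17% of all 32851 promoter windows of this length held them on either strand. The other 7 motifs were searched in the same way, and none contains another. The GATA motif, spelled AGATAA, was present in 9.99% of all windows. The ETS motif, spelled GGAAGT, was present in 19.7%. The RUNX motif, spelled TGTGGT, and a partial estrogen receptor element, spelled AGGTCA, were each present in 14%. The STAT motif, spelled TTCNNNGAA, was present in 7.02% and the AP-2 motif, spelled GCCNNNGGC, in 13.7%. The C/EBP motif, spelled TTGCNNAA, was present in 9.56%. Promoter sequences matched 8 of the 10 members, in 11 windows, all but Ehf and Tfap2c. Gata3 held 3 AP-2 matches, at 246, 231 and 221 bases before its start. Elf5 held a C/EBP match at 235 bases before one start and at 241 bases before its other start. Esr1 held an AP-2 match at 170 bases and a C/EBP match at 155 bases before one start, and a STAT match at 188 bases before its other start. The windows of Runx1 held 1 AP-2 match, at 55 bases, and those of Pgr and Cebpb held no match. These are matches of letters in a short window and not measured binding sites.

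Esr1, the estrogen receptor alpha, was measured by a probe printed in 10 spots. It read 8.47, 9.34, 8.55 and 9.12 in the WT glands and 9.23, 8.66, 8.42 and 8.64 in the KO glands. The genotypes overlapped, 1 of 4 same-numbered pairs was higher in the KO, and the difference was -0.13 (95% interval -0.69 to 0.42; limma, adjusted p = 0.726). The direction rested on a single array, since without WT replicate 2 the difference was 0.025. A second Esr1 probe was well above background on 3 WT and 2 KO arrays and was not tested. Pgr, the progesterone receptor, was well above background on 1 of the 8 arrays, WT replicate 3, at 4.13. Its other signals ranged from 2.14 to 4.31, so no fold change is given.

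Gata3, a zinc finger factor needed for luminal differentiation, read 11.18, 10.54, 11.02 and 11.14 in the WT glands and 11.36, 11.62, 11.54 and 11.32 in the KO glands. The lowest KO gland was above the highest WT gland. The difference was 0.49 ± 0.16 (SE, n = 4 per genotype; 95% interval 0.13 to 0.85) and missed the threshold (limma, adjusted p = 0.0644). Relative to the mean of luminal markers, described below for Elf3, it was -0.21 (adjusted p = 0.327). Groups without overlap, KO above WT, were found for Gata3, Foxa1 and Elf3, which is 3 of 9 members (33.3%), against 11.1% of all genes. No member had all KO arrays below all WT arrays, against 12.9% of all genes.

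Of the epithelium-specific ETS factors, Elf3 had the smallest adjusted p of the members. Its probe read 8.40, 7.64, 8.13 and 7.92 in the WT glands and 9.21, 8.87, 9.27 and 8.88 in the KO glands. All KO values were above all WT values, and the difference within same-numbered pairs lay between 0.81 and 1.23. The difference of the means was 1.03 ± 0.18 (SE, n = 4 per genotype; 95% interval 0.62 to 1.45; limma, adjusted p = 0.0140). It stayed called in all 8 fits that left out an array, with differences of 0.91 to 1.16. Luminal epithelial markers moved with Elf3 and Foxa1: 5 of 11 rose (Krt18, Epcam, Cdh1, Cldn3 and Cldn4), Muc1 fell, and the mean log2 level of the 11 was 12.44 to 13.22 in the WT and 13.43 to 13.68 in the KO. Their part in the result was not tested. Measured relative to that mean on each array, Elf3 differed by 0.34 (limma, adjusted p = 0.0875) and Foxa1 by 0.31 (adjusted p = 0.243). The median of all genes was then -0.72.

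Elf5, which drives the alveolar secretory program, was among the bright probes, at 16.26, 16.40, 16.29 and 16.25 in the WT glands and 15.71, 16.32, 15.93 and 15.85 in the KO glands. KO replicate 2 lay inside the WT range and the other KO glands lay below it. Each KO gland was lower than the WT gland of its number, by 0.08 to 0.56. The difference was -0.35 ± 0.14 (SE, n = 4 per genotype; 95% interval -0.66 to -0.04), which did not pass the test over all genes (limma, adjusted p = 0.107). It did pass without KO replicate 2, at -0.47 (adjusted p = 0.0473), and with each array scaled to its 75th percentile in place of quantile normalization, at -0.55 (adjusted p = 0.0343).

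Ehf lies next to Elf5 on chromosome 2, with no other protein-coding gene between them in the RefSeq annotation, and encodes an ETS factor of the same branch. It was measured by 3 probes. The brightest read 11.88, 11.42, 12.46 and 11.40 in the WT glands and 11.57, 12.21, 11.94 and 11.33 in the KO glands. The genotypes overlapped fully, and the differences of the 3 probes were -0.03, 0.25 and -0.03, none of them called (limma, adjusted p over probes from 0.462 to 0.955). With the mean of the 3 probes the difference was 0.064, so Ehf had no settled direction.

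**Figure D2:**
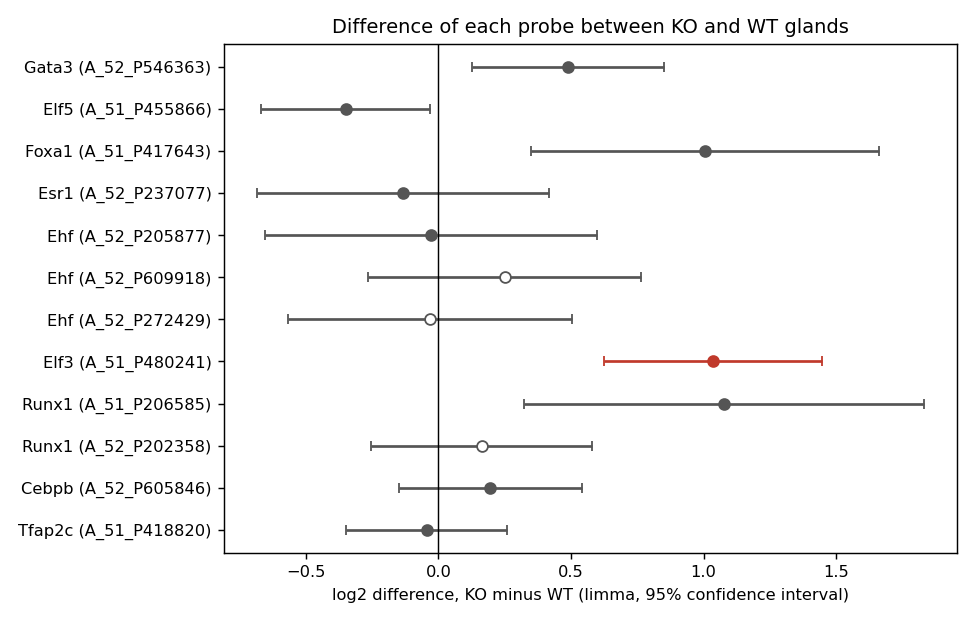
Log2 difference, KO minus WT, of the 12 probes of the factors that entered the test (x axis), with 95% intervals from limma fitted over all probes, n = 4 per genotype. Filled points stand for the gene, open points are its other probes, and red marks an adjusted p over probes under 0.05, which only Elf3 reached. The main Runx1 probe lies at 1.08 and the other at 0.16.

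Over all probes, 14.5% were called, and of the 12 member probes 1 was called. Runx1, a runt-domain factor, was measured by a pair of probes that gave different sizes. The brighter probe (accession NM_009821) read 8.99, 8.07, 8.50 and 8.35 in the WT glands and 9.57, 10.39, 9.54 and 8.73 in the KO glands. KO replicate 4 lay below WT replicate 1, so the genotypes overlapped although each pair was higher in the KO. The difference was 1.08 ± 0.34 (SE, n = 4 per genotype; 95% interval 0.31 to 1.84), 2.11-fold, with an adjusted p of 0.0590 in limma. It passed without KO replicate 4, at 1.35 (adjusted p = 0.0253), and without WT replicate 1, at 1.25 (adjusted p = 0.0419). The other probe (NM_001111023) differed by 0.16 (95% interval -0.25 to 0.58; limma, adjusted p over probes = 0.560), so the size of the Runx1 difference depended on the probe, and with the mean of both it was 0.62 (adjusted p = 0.0608).

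Cebpb, a leucine zipper factor of alveolar growth, read 10.15, 10.08, 9.82 and 9.98 in the WT glands and 10.34, 10.05, 10.51 and 9.91 in the KO glands. The genotypes overlapped, 2 of 4 pairs were higher in the KO, and the difference was 0.20 (95% interval -0.15 to 0.54; limma, adjusted p = 0.378). Tfap2c read 13.17, 12.85, 13.04 and 12.85 in the WT glands and 12.74, 12.88, 13.20 and 12.92 in the KO glands. Its difference was -0.04 (95% interval -0.34 to 0.26; limma, adjusted p = 0.833). Its genotypes overlapped, and 3 of 4 pairs were higher in the KO.

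WT replicate 2 was the lowest WT array for Gata3, Foxa1, Elf3 and the main Runx1 probe, and also had the lowest luminal marker mean. Without it, the differences were 0.35 for Gata3 (limma, adjusted p = 0.117), 0.91 for Elf3 (adjusted p = 0.0316) and 0.94 for Runx1 (adjusted p = 0.149).

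To ask whether members changed unequally, the difference between a pair of factors was taken within each array. KO and WT arrays were then compared with a two-sided exact permutation test, which over 70 relabelings gives no p below 0.0286. Of 4 planned pairs, 3 could be computed, since Pgr was not tested, and p-values were adjusted over the 3. Elf5 minus Elf3 was 8.28 ± 0.37 in the WT and 6.89 ± 0.42 in the KO (SD, n = 4 each), a change of -1.38 with no overlap (exact permutation p = 0.0286, adjusted p = 0.0429). Gata3 minus Foxa1 fell by 0.52, from 5.11 ± 0.38 to 4.59 ± 0.08 (SD, n = 4 each; exact permutation p = 0.0286, adjusted p = 0.0429). Under normexp background correction Gata3 differed by 0.49 and Foxa1 by 0.46, nearly equal amounts. The unequal change of Gata3 and Foxa1 therefore depended on the background correction. Elf5 minus Ehf changed by -0.32, within the spread (exact permutation p = 0.286). With the dams paired by number, 4 pairs allow no p below 0.125, so the paired test cannot call either of these changes, and both gave an adjusted p of 0.188. Without WT replicate 2 or any of the KO arrays, both changes missed the threshold (exact permutation, adjusted p = 0.0857 to 0.129), with values of -1.57 to -1.22 for Elf5 minus Elf3 and of -0.54 to -0.33 for Gata3 minus Foxa1.

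**Figure D3:**
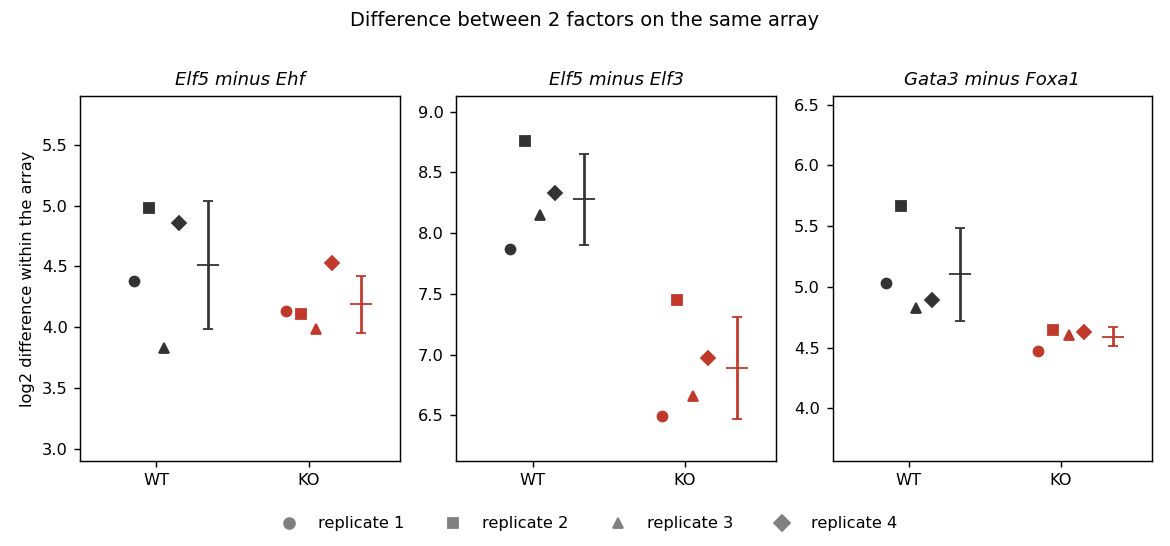
Within-array difference in log2 signal between a pair of factors (y axis, 3 log2 units in each panel) in 4 WT and 4 KO glands, with symbols for the replicate number and bars for mean and SD. Elf5 minus Elf3 and Gata3 minus Foxa1 are lower in every KO gland than in every WT gland, while Elf5 minus Ehf overlaps.

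Relatives, partners and known downstream genes of the factors were taken from lists of 126 genes, of which 109 were tested. Of these, 12 rose and 3 fell, and the median difference was 0.098. In all 13.8% were called, against 16.5% of all genes. Of the 15 called, Spdef, Cebpd, Kdm1a and Tspan8 stayed called without each array in turn, whereas the other 11 lost the call without at least 1 array (adjusted p up to 0.108), with no change of sign. With the replicate number as a block, 16 rose in place of 12 and 7 fell in place of 3, while Ets2 and Cxcl12 lost the call. With no filter on dim probes 8 rose and 1 fell, and Ets2, Foxp1, Runx2, Rerg, Runx3 and Adamts18 lost it. Relative to the luminal marker mean, Ets2, Foxp1, Cxcl12, Ddx5 and Kdm1a were lower and no longer higher in the KO, by amounts that did not pass the test, and 2 rose and 57 fell among the 109.

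Among 8 further ETS factors, 2 rose and none fell (1 lower at an unadjusted p under 0.05). Spdef, a factor of secretory and luminal epithelia, had the largest difference of the 109. It read 6.97, 7.05, 7.07 and 6.49 in the WT glands and 8.92, 10.14, 9.40 and 8.90 in the KO glands. The genotypes were far apart, and the difference was 2.45 ± 0.28 (SE, n = 4 per genotype; 5.45-fold; limma, adjusted p = 0.00429). It was still 1.75 relative to the luminal marker mean. Ets2 rose by 0.50 (limma, adjusted p = 0.0397; 0.0538 with the replicate block). The other 6 had differences that did not pass, from -0.59 for Elf4 to 0.34 for Elf1.

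In the families of the remaining members, 3 of 25 tested genes rose and 1 fell, a called share of 16% against 16.5% of all genes. None of the 4 tested GATA relatives was called, at an unadjusted p under 0.05 either (differences -0.46 to 0.34). Foxp1 rose by 0.61 (limma, adjusted p = 0.0403; 0.0582 when its probes were averaged) among 4 forkhead factors. Foxa2 and Foxa3, the closest relatives of Foxa1, did not enter the test. Runx2, known from bone and also present in mammary epithelium, rose by 0.88 (limma, adjusted p = 0.0370) and Runx3, a factor of lymphocytes and epithelia, fell by 0.63 (adjusted p = 0.0404). Both depended on the processing. With normexp background correction Runx2 differed by 0.37 and lost the call (adjusted p = 0.0591), and Runx3 by -0.38 (adjusted p = 0.0427). With the mean of a gene's probes neither was called (adjusted p = 0.129 and 0.0629). Their DNA-binding partner Cbfb differed by 0.35 (adjusted p = 0.0971). Cd3e and Cd4, both T cell genes, fell as well, Cd4 not with normexp correction (-0.14, adjusted p = 0.177) or the replicate block (adjusted p = 0.0596), with 2 of 8 tested T cell markers called lower and a list mean of 6.16 to 7.39 in the WT and 6.19 to 6.54 in the KO. Their part in the Runx3 difference was not tested. Of 5 C/EBP relatives only Cebpd, known from involution, was called, at 1.32 (adjusted p = 0.0122). None of 3 AP-2 relatives was called, with 0 at an unadjusted p under 0.05. None of 5 tested steroid receptors was called, with 1 lower at an unadjusted p under 0.05 (Nr3c2, the mineralocorticoid receptor, -0.37, adjusted p = 0.0876).

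Of 25 other luminal lineage regulators, 1 rose and 24 were not called. Sox9, a progenitor factor, rose by 0.89 (limma, adjusted p = 0.0196). At an unadjusted p under 0.05 the list counted 6 higher and 2 lower. Stat5a, which acts upstream of Elf5 in prolactin signalling and was singled out here after its values had been seen, read 12.31, 12.61, 12.43 and 12.50 in the WT glands. In the KO glands it read 11.11, 11.99, 11.61 and 12.26. Each KO value was below each WT value, and the difference of -0.72 missed the threshold (limma, adjusted p = 0.0632). The related Stat5b differed by -0.03.

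Genes known to respond to estrogen or progesterone went both ways. Of 11 tested, Rerg (1.06; limma, adjusted p = 0.0357) and Cxcl12 (0.34; adjusted p = 0.0388) rose, and Stc2 (-1.18; adjusted p = 0.0267) and Adamts18 (-0.56; adjusted p = 0.0370) fell. With normexp background correction Rerg differed by 0.60 (adjusted p = 0.0380), and Adamts18 by -0.32 and was no longer called (adjusted p = 0.107). Cxcl12 was not called with the replicate block (adjusted p = 0.0568) or when its probes were averaged (adjusted p = 0.109). The list median was -0.02. Greb1, Areg, Tnfsf11, Tff3, Ihh and Pdzk1, classical targets of the receptors, did not enter the test. Of 23 receptor coregulators and chaperones, 2 rose and none fell, with 2 lower at an unadjusted p under 0.05. Kdm1a, a histone demethylase, rose by 0.69 (limma, adjusted p = 0.0105), and Ddx5, an RNA helicase, by 0.53 (adjusted p = 0.0190).

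None of the 12 tested alveolar secretory genes was called, with 0 at an unadjusted p under 0.05, and their median difference was -0.19. The caseins Csn1s1, Csn1s2a and Csn2 and the whey protein Wap differed by -0.02 to 0.07, and their signals lay near the top of the scale, at 17.76 to 18.47. Quantile normalization gives the brightest probes nearly the same values on every array, and Wap read 18.475 on KO arrays 1, 3 and 4. The small differences of these milk protein genes therefore cannot show whether their mRNA changed. Folr1, a folate receptor of the secretory epithelium, differed by -0.60 (limma, adjusted p = 0.147). All 5 tested genes of luminal progenitors had a higher KO mean, where the median difference over all genes was -0.02. Of the 5, 2 were called higher (40%), against 7.53% of all genes called higher. Tspan8 rose by 1.30 (adjusted p = 0.00880) and Aldh1a3 by 1.95 (adjusted p = 0.0202), with no overlap. Relative to the luminal marker mean Tspan8 differed by 0.61 and was no longer called, and Aldh1a3 differed by 1.25. Cd14, Itga2 and Itgb3 differed by 1.39, 0.99 and 0.08 and were not called. Itga2 was well above background on only 2 of the 4 WT arrays, so the size of its difference is uncertain. The difference between the secretory and progenitor lists was not tested.

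**Figure D4:**
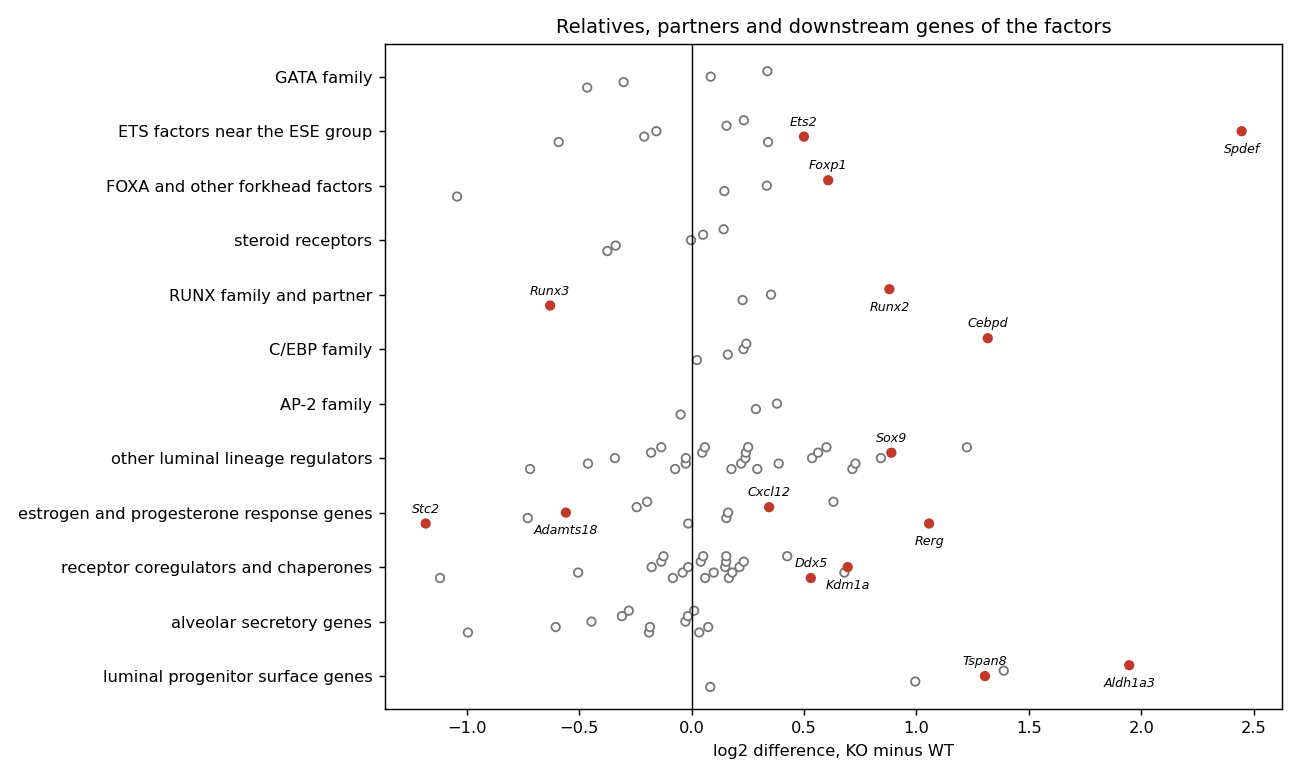
Log2 difference, KO minus WT, of the 109 tested relatives, partners and downstream genes (x axis), 1 row of points per list. Red points with a name have an adjusted p under 0.05 in limma (n = 4 per genotype), and open points do not. Vertical offsets within a row only separate points. Spdef stands farthest right at 2.45, and the alveolar secretory row holds no red point.

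Markers of other cell types were read as lists on the same arrays. Basal markers had a mean level of 12.33 to 12.85 in the WT and 12.25 to 12.54 in the KO, with 1 of 10 called, Krt17, lower. Adipocyte markers lay at 12.70 to 13.43 and 13.37 to 13.55 (2 of 8 higher) and fibroblast markers at 12.91 to 13.12 and 13.13 to 13.66 (1 of 8 higher, Dcn). With 75th percentile scaling Dcn and the adipocyte marker Cfd were not called (adjusted p = 0.0600 and 0.0537). Of 6 tested neutrophil markers, Camp and Ngp were called higher. Both were well above background on 0 of the 4 WT arrays, so they entered the test only through the KO arrays. Only lower limits can be given, at least 8.54-fold for Camp and at least 7.11-fold for Ngp. The calls of Camp and Ngp rest on WT signals that were not measured, so no p is given for these limits. The other 4 had a mean level of 7.33 to 8.29 in the WT and 8.18 to 9.39 in the KO, which overlapped. None of 7 macrophage markers was called (0 at an unadjusted p under 0.05), and none of 7 endothelial markers (1 lower). Of 4 B cell markers, Cd79b was called higher, though not with the replicate block (adjusted p = 0.0744). As Runx1 and Cebpb are also expressed by blood cells, these values stand beside theirs, and their part in those differences was not tested.

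**Figure D5:**
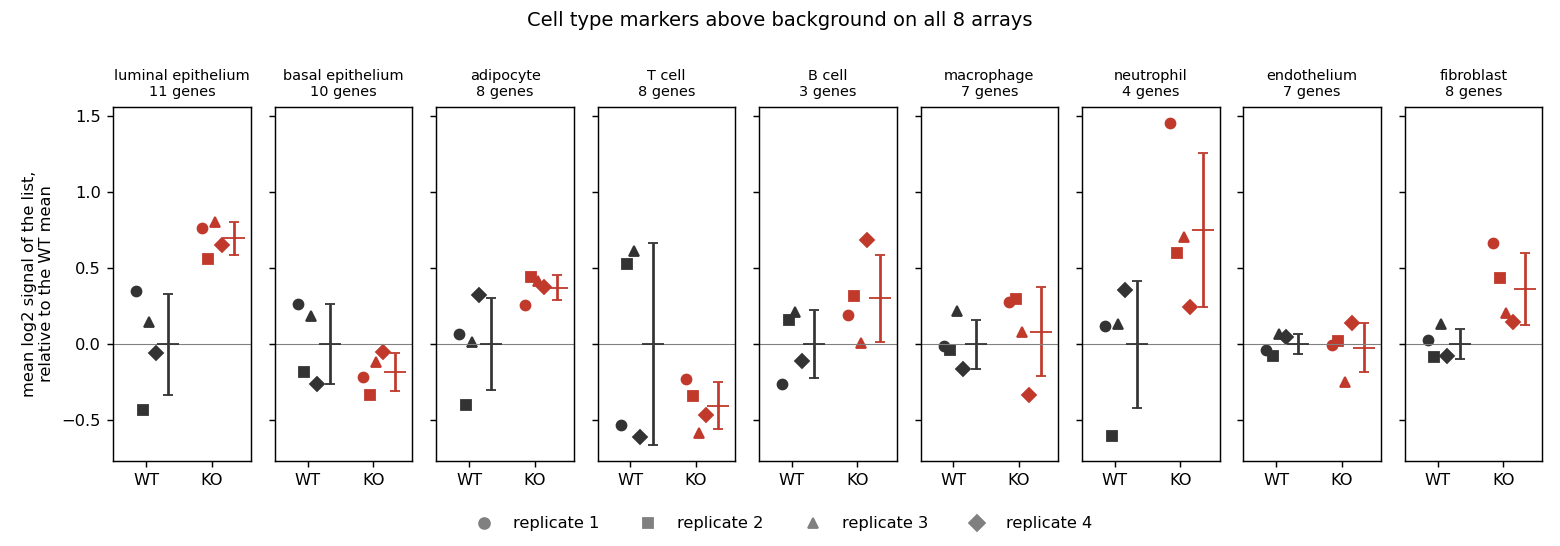
Mean log2 signal, on each array, of the markers of each cell type that were well above background on all 8 arrays, relative to the WT mean of the list (y axis), for 4 WT and 4 KO glands, with symbols for the replicate number and bars for mean and SD. The luminal and fibroblast lists are higher on every KO array than on every WT array, by 0.70 and 0.36 on average, and the basal, macrophage, neutrophil and endothelial lists overlap.

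As a description, the genes whose profile over the 8 arrays was most like that of a member were Esyt3 (Pearson r = 0.982), Myo1a (0.982), Tnp2 (0.981), Plek2 (0.974) and Acot5 (0.959) for Elf5. For Gata3 they were Sertad4 (0.987), Ccl27a (0.987), Plekha6 (0.985), Optn (0.981) and Gm527 (0.977), and for Esr1 Psd (0.946), Scrg1 (0.935), Ly6g5b (0.931), Map7 (0.928) and Zmynd15 (0.924). The arrays of both genotypes enter each r, so the genotype difference is part of it, and no test is given.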

How the data were processed

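RNA of No. 4 mammary glands from 4 WT and 4 KO dams, grouped by the sample labels, was measured on 8 one-colour Agilent arrays. Per the labels, the arrays were read with Agilent Feature Extraction 10.7. The authors deposited scanner intensities, background-subtracted and detrended within each array but not normalized between arrays, and a table of log2 values that they had quantile-normalized in GeneSpring. That table, used as an alternative, correlated with each array's own log2 intensities at r above 0.99 and had a median of 6.32, so its log2 scale is known and no centring was applied.

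The processed intensities were log2-transformed and then quantile-normalized in limma 3.58.1 in R 4.3.3. Control spots and 64 to 100 outlier spots per array were left out, none was saturated, and spots of a probe were averaged, which gave 41174 probes. Accessions of 27479 probes matched a symbol of the RefSeq table, and 67 matched probes lacked a value on an array and were left out. A probe entered if at least 1 genotype had it well above background on its 4 arrays. The brightest probe represented its gene, and 14137 genes were tested by limma with Benjamini-Hochberg adjustment; called means an adjusted p under 0.05. The number of arrays limits the precision. Where a genotype was below background throughout, the fold is a lower limit against the lowest signal above background. The arrays were designed on mm9 and the promoter sequences are of GRCm38.p6, so no probe coordinates are given. The fit was tested on simulated data.

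WT and KO arrays carry the same replicate numbers 1 to 4, and the sources do not say what a number shares. Deviations from the genotype means correlated at r = 0.22, 0.16, 0.30 and 0.28 between same-numbered arrays (mean 0.243). Between others the mean was -0.079, which is not independent evidence, since centring within each genotype ties it to the first mean. The own number was the best partner for 2 of the 4 WT arrays. The numbers were used as pairs, but these values do not establish that the dams were paired. The alternatives were 75th percentile scaling, normexp background correction (offset 50, on median spot signals), no filter, the deposited table, the mean of a gene's probes, the replicate block, the methods' t-test, levels relative to the luminal markers, and each array left out. The members, lists and tests were chosen with earlier results of these data known, and some related genes are not reported here and were left out of the lists after the data were examined. The text names all members, of each related list up to 3 called genes per direction with the smallest p, the genes with the smallest p of each marker list, and the 5 genes most like Elf5, Gata3 and Esr1; range ends and genes not above background are named beyond that rule.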

Additional observations from a re-analysis of the deposited data

Results flagged for a closer look

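Of 108 groups of 4 arrays examined, 5 held an array far from the other 3 by Dixon's test of the gap over the range at the 95% level, close to the 1 in 20 that chance gives. Among the members this was WT replicate 2 for Foxa1, at 4.88 against 6.15 to 6.25. Among the markers it was KO replicate 4 for Krt17 (10.55 against 11.35 to 11.47) and for Mrc1 (9.61 against 10.03 to 10.11), and WT replicate 2 for Ngp (3.78 against 1.93 to 2.21, none of them well above background). The mean of the neutrophil markers was 8.73 on the array of KO replicate 1, against 7.66 to 7.81 on the other KO arrays.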

How the results depend on the processing

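Elf3 was called in 15 of its 16 alternatives and Spdef in all 16. Foxa1 lost the call with no filter on dim probes (1.00, adjusted p = 0.0737), with the replicate block (1.00, adjusted p = 0.0568), with the methods' t-test (1.00, Benjamini-Hochberg adjusted p = 0.101) and relative to the luminal marker mean (0.31), and it was 0.46 and called with normexp background correction; leaving out each array gave 0.68 to 1.13. The members called were 1 with no filter, with the replicate block and with the t-test, and 1 to 3 with an array left out. Relative to the luminal marker mean, Elf3 was 0.34, Gata3 reversed to -0.21 and Cebpb to -0.50, while Elf5 (-1.05), Ehf (-0.72) and Tfap2c (-0.74) became called. In that setting Ets2 (-0.20), Foxp1 (-0.088), Cxcl12 (-0.35), Ddx5 (-0.17), Kdm1a (-0.00095), Trp63 (-0.41), Cfd (-0.019), Mrc1 (-0.43), Cd163 (-0.34), Vwf (-0.33), Dcn (-0.20) and Lum (-0.13) also turned negative, because it lowers every gene by the rise of the markers. Elf5 was called with 75th percentile scaling (-0.55). With an array left out, Elf5 ranged from -0.47 to -0.27, Esr1 from -0.30 to 0.025, Ehf from -0.18 to 0.20, Runx1 from 0.80 to 1.35 and Tfap2c from -0.13 to 0.022. The mean of the Ehf probes gave 0.064.

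Genes called numbered 2331, with 1389 by the t-test (593 higher, 796 lower), 9281 relative to the luminal markers (164 higher, 9117 lower, so that the share higher moved from 45.7% to 1.77%) and 515 to 3070 with an array left out (266 to 1388 higher, 249 to 1682 lower). Related genes called higher numbered 8 with no filter, 16 with the replicate block, 7 by the t-test, 2 relative to the luminal markers and 5 to 16 with an array left out. Those called lower numbered 1 with no filter, 7 with the replicate block, 0 by the t-test, 57 relative to the luminal markers and 0 to 4 with an array left out. The replicate block changed no other call among the members. Within arrays, Elf5 minus Elf3 was -1.38 and Gata3 minus Foxa1 -0.52 with the block, and -1.57 to -1.22 and -0.61 to -0.33 with an array left out, where fewer relabelings are possible. Gata3 and Foxa1 differed between genotypes by nearly equal amounts, 0.49 and 0.46, under normexp background correction. The neutrophil marker mean differed by 1.95 over 6 markers, a value not measured in the WT for Camp and Ngp, and by 0.75 over the 4 markers above background on all arrays, an alternative chosen after seeing the data. The cause of the other changes was not tested.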
